A study of Mus musculus with 5 samples.

Results

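N6-methyladenosine (m6A) is written on mRNA by a nuclear complex in which METTL3 is the catalytic subunit and WTAP and ZC3H13 are structural partners. It is bound by the cytoplasmic readers YTHDF1, YTHDF2 and YTHDF3, by the nuclear reader YTHDC1 and by IGF2BP1, a reader known for stabilising its targets, and it is removed by the demethylase ALKBH5. The mRNAs of this machinery carry adenosines that can themselves be methylated. The question addressed here was how much m6A the mRNAs of these 9 genes carried in mouse embryonic stem cells (mESCs), and how it differed after inhibition of METTL3 and after loss of METTL5, an rRNA methyltransferase.

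The 9 genes were the writers Mettl3, Wtap and Zc3h13, the readers Ythdf1, Ythdf2, Ythdf3, Ythdc1 and Igf2bp1, and the eraser Alkbh5. Their members in the data were the adenosine positions on GENCODE M21 exons of these genes (mm10), on the strand of the call. Of the 9 genes, 2 had covered positions, out of 2749 genes with any covered position in the series. Ythdf1 had 723 positions in the METTL3 inhibition dataset. Igf2bp1 had 111 positions in that dataset and 313 in the Mettl5 dataset. These were 834 of 471848 positions in the first dataset and 313 of 195787 in the second. Mettl3, Wtap, Zc3h13, Ythdf2, Ythdf3, Ythdc1 and Alkbh5 had no position in either dataset, where each position had at least 25 valid calls in every library, and their methylation is not analysed here.

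The METTL3 inhibition dataset held 1 library of E14 mESCs exposed for 48 h to STM2457 (30 µM), which blocks the catalytic activity of METTL3, and 1 library of the same cells with 0.025% v/v DMSO. Both came from a reporter line, labelled WT, that also carried 2C::3xtbGFP-PEST and Zscan4::mCherry-PEST reporters, a doxycycline-dependent APOBEC1-YTH transgene and a homozygous METTL3-FKBP12 F36V knock-in, with neither of these last systems induced. The Mettl5 dataset held 1 library each of untreated WT mESCs, Mettl5-KO clone #1 and Mettl5-KO clone #2. Cells were grown in serum and LIF, with 2i added for maintenance. The datasets were made from different cell lines and are described separately, so cell line and any batch cannot be told apart between datasets. With 1 library per condition, each test below compares libraries, and its p-value covers counting error only.

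The 5 libraries held between 17897440 and 71574467 valid calls, with a median coverage per position between 45 and 64. Of the mESC markers, 10 of 12 were covered in the first dataset and 8 of 12 in the second, among them Pou5f1, Sox2 and Nanog. Of 5 endoderm and 4 mesoderm markers, 0 were covered. Of 6 fibroblast markers only Fn1 was covered, at 98.5 in every 1000000 valid calls in DMSO, 194 in STM2457 and between 232 and 317 in the Mettl5 dataset, and of 4 neural markers only Tubb3, at 170 in DMSO and 150 in STM2457. Since neither Mettl3 nor Mettl5 had a position, the mRNAs of the inhibited and the deleted gene could not be checked. For the activity of METTL3, the m6A levels over all genes in DMSO and STM2457 are given below.

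An m6A site was a position with more than 25 valid calls in every library of a dataset, and where 25% or more of the valid calls were m6A in 1 library or more (this share is the level). Ythdf1 had 16 such sites and Igf2bp1 had 1 in the METTL3 inhibition dataset. Another Igf2bp1 position was a site in the Mettl5 dataset. The sequences below, from GENCODE M21 transcripts, are 21 bases long and run 5′ to 3′ on the minus strand, which is the coding strand of both genes. Capitals mark the 5 bases centred on the called adenosine. Shown are all 6 Ythdf1 sites with the motif GGACA, which held both sites that were not called lower after STM2457, the Ythdf1 site with the largest relative decrease and both Igf2bp1 sites. Ythdf1 sites are on mm10 chromosome 2 and Igf2bp1 sites on chromosome 11.
Ythdf1 site 180911008: atgggagtGGACAtttctgtg
Ythdf1 site 180911531: cataacatGGACAttggtact
Ythdf1 site 180910937: tggtctcaGGACAagtggaag
Ythdf1 site 180911676: caatggtgGGACAaatgtaaa
Ythdf1 site 180912070: ctacctatGGACAacttagta
Ythdf1 site 180911940: agcatgggGGACAagtggttc
Ythdf1 site 180911230: tcctggagAAACTgaaagctg
Igf2bp1 site 95963448: ggaacacaGAACTggaggggc
Igf2bp1 site 95957296: gcgggctcGGACTtggctagt

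In Ythdf1, which encodes a cytoplasmic reader, m6A was dense in DMSO and was lower in STM2457 at 14 of 16 sites. The mean level over these sites was 62.9% ± 25.6 (SD over sites, n = 16) in DMSO and 24% ± 28.7 in STM2457. The only m6A site of Igf2bp1 in this dataset was also lower. Together, 15 of 17 sites (88.2%) on the covered reader mRNAs were called lower and 0 were called higher by Fisher's exact test (two-sided, adjusted p below 0.05). Over the 6201 sites of all genes, 91.5% were called lower and 0.323% higher. With DRACH motifs only, 13 of 15 sites were called lower, against 97.5% over all genes. Pooled over the 17 sites, the level was 64.1% (95% exact binomial interval 60.7 to 67.5) in DMSO and 23.4% (20.6 to 26.5) in STM2457. Over all sites it was 55.5% and 15.4%.

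The site threshold selects positions that are high in 1 of the libraries, so levels were also taken over every covered position with the DRACH consensus of m6A. On Ythdf1 and Igf2bp1, 64 such positions had a pooled level of 18.6% (17.2 to 20) in DMSO and 6.64% (5.79 to 7.57) in STM2457. Most were on Ythdf1, where 57 positions were at 19.4% (17.9 to 20.9) and 7.11% (6.19 to 8.11). The 7 positions on Igf2bp1 were at 11.6% (8.17 to 15.8) and 0.862% (0.105 to 3.08). The same quantity over 38762 positions of all genes was 7.24% and 1.89%. Pooled levels give more weight to positions with more calls. With equal weight for each position, the means were closer, at 18.1% and 6.5% on both genes and 10.9% and 2.71% over all genes. At the 765 adenosines of both genes outside the consensus, the level was 0.895% (0.798 to 1) in DMSO and 0.826% (0.734 to 0.925) in STM2457, and these intervals overlapped. Over all genes it was 0.927% and 0.806%. The 765 adenosines include the Ythdf1 sites 180911736 (AGACG) and 180910905 (GGATT), both called lower. Their levels were 42% and 25% in DMSO and 5.88% and 4% in STM2457.

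**Figure D1:**
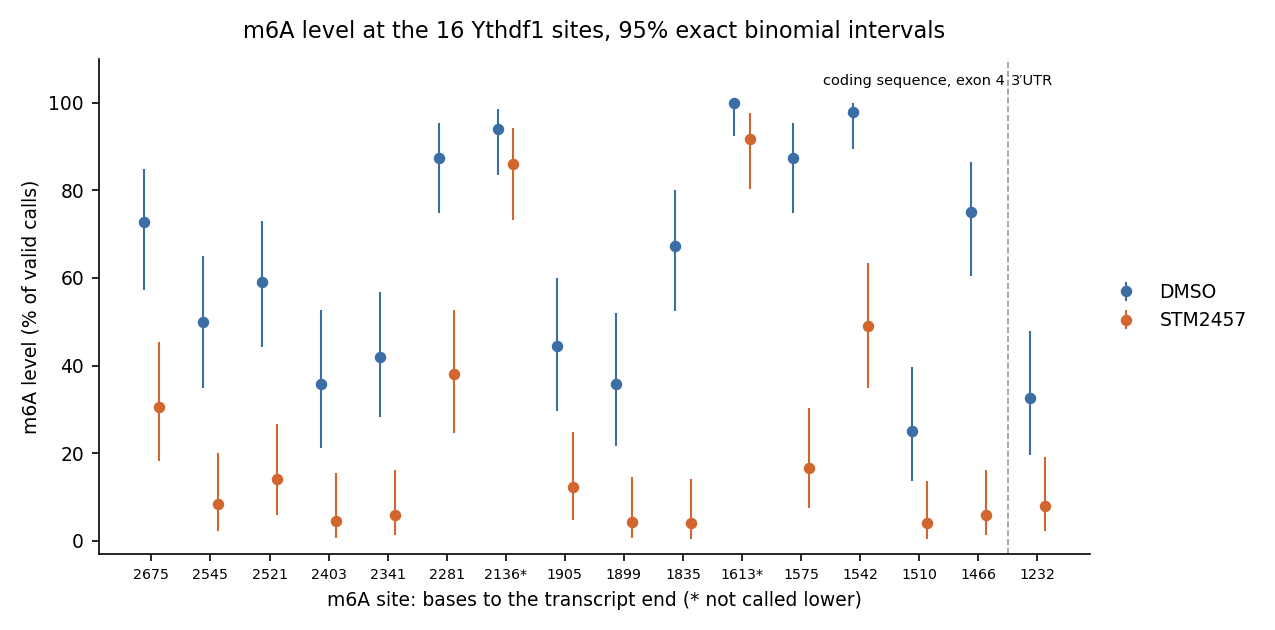
m6A level (percent of valid calls) at the 16 m6A sites of Ythdf1, in order along the transcript, in DMSO (blue) and STM2457 (orange). The x axis gives the bases from each site to the transcript end, points are single libraries, and bars are 95% exact binomial intervals. At the sites 2136 and 1613 bases from the end, marked with an asterisk, the intervals of both libraries overlap near the top of the scale.

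Ythdf1 (ENSMUSG00000038848.14, chr2:180904377-180920949, minus strand) has 5 exons in its transcript of 3184 bases, and the sites were concentrated in 1 of them. Exon 4, of 1521 bases and coding throughout its covered stretch, held 15 of the 16 sites. Of its 34 covered consensus positions, 13 (38.2%) were sites, against 24.6% of 57 on the whole of Ythdf1 and 14.2% of 38762 over all genes. Exon 5, of 1292 bases, holds the end of the coding sequence and the 3′UTR, and 1 of its 23 consensus positions was a site. The pooled level over consensus positions was 29.7% (27.5 to 32.1) in exon 4 and 4.19% (3.08 to 5.57) in exon 5 in DMSO. In STM2457 the order was the same, with 11.8% (10.3 to 13.5) and 0.815% (0.391 to 1.49). Consensus positions that start with GGAC were mostly in exon 4, and the exons were not compared within motifs. The 15 sites of exon 4 had means of 65% in DMSO and 25% in STM2457. Over all genes, the 361 sites in the coding sequence of internal exons of 400 bases or more had 60.2% and 17.4%. Among the 1690 genes with a site, 12 had more sites than Ythdf1, and the median gene had 3. Such counts also depend on how many positions of a gene were covered.

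The highest level in DMSO was at 180911008, where 47 of 47 valid calls were m6A (100%, 92.5 to 100). In STM2457 the level there was 91.8% (45 of 49, 80.4 to 97.7), and the difference did not pass the test (adjusted p = 0.125, Fisher's exact test). Its 95% interval ran from a decrease of 19.2 points to an increase of 0.866 points (Newcombe). The other site that was not called, 180911531, was at 94% (47 of 50, 83.5 to 98.7) in DMSO and 86% (43 of 50, 73.3 to 94.2) in STM2457 (adjusted p = 0.331, Fisher's exact test). Its difference had an interval from -20.8 to 4.41 points. A decrease within these intervals was not excluded at this depth.

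Both of these sites are in exon 4 with the motif GGACA, 523 bases apart. The GGACA site 180910937 was about as high in DMSO, at 98% (49 of 50, 89.4 to 99.9), and was at 49% (25 of 51, 34.8 to 63.4) in STM2457 (adjusted p = 2.1e-08, Fisher's exact test). Its interval in STM2457 did not overlap those of the sites at 180911008 and 180911531, although the 3 sites had similar levels in DMSO. At 180911676 the level was 87.5% in DMSO and 38% in STM2457. At 180912070 it was 72.7% and 30.6%. At 180911940 it was 50% and 8.33%. The 6 GGACA sites thus averaged 83.7% in DMSO and 50.6% in STM2457.

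The 10 Ythdf1 sites with other motifs averaged 50.5% in DMSO and 7.96% in STM2457, and all 10 were called lower. Over all genes, the 932 GGACA sites had means of 58.6% and 15.3%, near those of all 5493 DRACH sites (58.5% and 15.6%). Of either set, 97.5% were called lower. Both sets were lower in DMSO than the 6 GGACA sites of Ythdf1, so levels in STM2457 are not compared at like levels in DMSO. The 114 GGACA sites of all genes at 90% or more in DMSO had means of 95.8% and 46.7%, and 93% were called lower. Motifs were compared after the levels were seen, and no test of the difference between motifs was made. The site 180910970 (GGACT) was at 87.5% in DMSO and 16.7% in STM2457, a level close in DMSO to that of the GGACA site 180911676 and lower in STM2457. The site 180911230 (AAACT) had the largest relative decrease, of 93.9%, from 67.3% (33 of 49) to 4.08% (2 of 49; adjusted p = 7.6e-11, Fisher's exact test). The AGACT sites 180910861 and 180911916 were at 75% and 59.2% in DMSO and at 5.88% and 14% in STM2457. The remaining 6 sites had levels from 25% to 44.4% in DMSO and from 4% to 12.2% in STM2457. The only site in the 3′UTR, 180905609 (TGACT), was among them, at 32.6% (15 of 46) and 8% (4 of 50). The lowest site, 180910905 (GGATT), was at 25% (12 of 48) in DMSO, and the highest consensus position under the threshold, 180904528 (AGACC, 3′UTR), was at 18.4% of 49 calls.

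Set against all genes, the Ythdf1 sites at 180911008 and 180911531 lay at the edge of the distribution. Of 6201 sites, 0.258% had a level in STM2457 as high as that of 180911008 or higher, and 0.387% as high as that of 180911531 or higher. A smaller relative decrease was found at 3.9% and 3.92% of all sites. Among the 932 sites with the same motif these shares were 0.536% and 0.644%. At the GGACA sites 180910937, 180911676 and 180912070, a smaller relative decrease was found at 12%, 15% and 16.1% of all sites. Within the motif it was found at 6.22%, 8.58% and 9.44%. At the GGACA site 180911940 the shares were 59.4% of all sites and 57.1% within the motif. High sites in general decreased less in relative terms: the 761 sites at 90% or more in DMSO had a median of 42.9% in STM2457 and a median relative decrease of 55.3%, against 79.9% over all sites. Of these 761 sites, 44 (5.78%) were still at 80% or more. Both Ythdf1 sites belong to this set of 761.

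**Figure D2:**
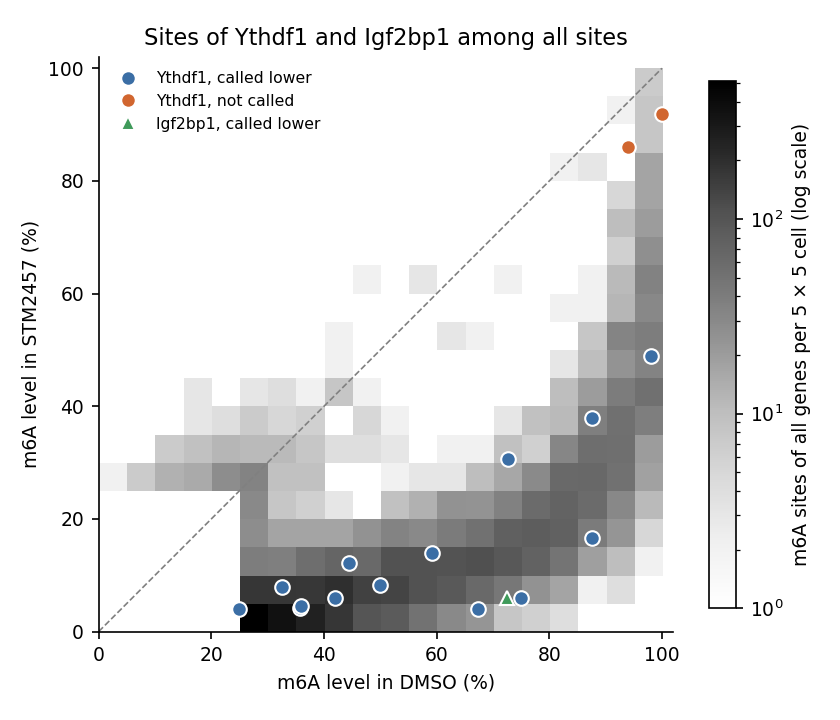
m6A level in DMSO (x axis, percent) against STM2457 (y axis, percent). Grey cells count the 6201 m6A sites of all genes on a log scale, symbols are the 17 sites of Ythdf1 and Igf2bp1, and the dashed line marks equal levels. The 2 Ythdf1 sites that were not called (orange) sit in the upper right corner, and the other 15 sites lie lower in STM2457.

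The 3 genes whose mean site levels were nearest to those of Ythdf1, among 884 genes with at least 3 sites, were Hspbap1, Dbf4 and Acer2. Likeness was the Euclidean distance between mean levels in DMSO and STM2457, in percentage points. Hspbap1 had 5 sites with means of 63.1% and 23.5% (distance 0.468). Dbf4 had 8 sites with means of 62.2% and 23.6% (distance 0.833). Acer2 had 4 sites with means of 62.8% and 23% (distance 0.941). All sites of these 3 genes were called lower, while in Ythdf1 a pair of sites was not.

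Igf2bp1 (ENSMUSG00000013415.9, chr11:95957163-96005940, minus strand) was covered in its last exon only, exon 15, which has 6430 bases and holds the stop codon and the 3′UTR. In the METTL3 inhibition dataset the covered positions lay between 95963129 and 95963592, with 28 in the coding sequence and 83 in the 3′UTR, and ended 5966 bases before the transcript end. Of these positions, 17 overlap the annotated microRNA gene Mir3063 on the same strand. The site 95963448 (GAACT) is in the 3′UTR, 144 bases from the upstream exon junction. Its level was 72.5% (29 of 40, 56.1 to 85.4) in DMSO and 5.88% (2 of 34, 0.72 to 19.7) in STM2457, and the difference passed the test (adjusted p = 8.6e-09, Fisher's exact test). This relative decrease of 91.9% was larger than that of 86% of all sites. The other 6 consensus positions of the window ranged from 0% to 7.14% in DMSO and were all at 0% in STM2457, on 27 to 35 calls each.

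In the Mettl5 dataset, Igf2bp1 was covered from 95957263 to 95959279, near the end of the 3′UTR. This window shares 0 positions with the one in the METTL3 inhibition dataset, and 3849 bases lie between them, so no Igf2bp1 position could be set side by side in DMSO and WT. The site 95957296 (GGACT) was at 9.09% (4 of 44, 2.53 to 21.7) in WT, 16.2% (6 of 37, 6.19 to 32) in clone #1 and 25% (7 of 28, 10.7 to 44.9) in clone #2. The 3 intervals overlap. Neither clone differed from WT by Fisher's exact test (adjusted p = 1 and 0.7). The difference from WT had an interval of -7.67 to 23 points in clone #1 and -1.34 to 35.1 points in clone #2, which is wide at this depth. Thus 0 of 1 site was called lower or higher in both clones, against 0.265% of 1886 sites lower and 0% higher over all genes. At an unadjusted p under 0.05 in both clones (Fisher's exact test), the counts were 0 for Igf2bp1 and 46 for all genes. The position met the site threshold only through clone #2, at exactly 25%, so the threshold itself selected a clone above WT. With 4 of 44 calls in WT, a decrease could not have passed the test in either clone. The position 95958875 (GGACT) had a higher level, of 39.5% of 38 calls in WT, 46.7% of 30 in clone #1 and 24% of 25 in clone #2, and was not a site only because clone #2 had exactly 25 calls. Pooled over 24 consensus positions with more than 25 calls, the level was 2.35% (1.53 to 3.46) in WT, 1.71% (0.96 to 2.81) in clone #1 and 2.08% (1.21 to 3.3) in clone #2, with overlapping intervals.

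**Figure D3:**
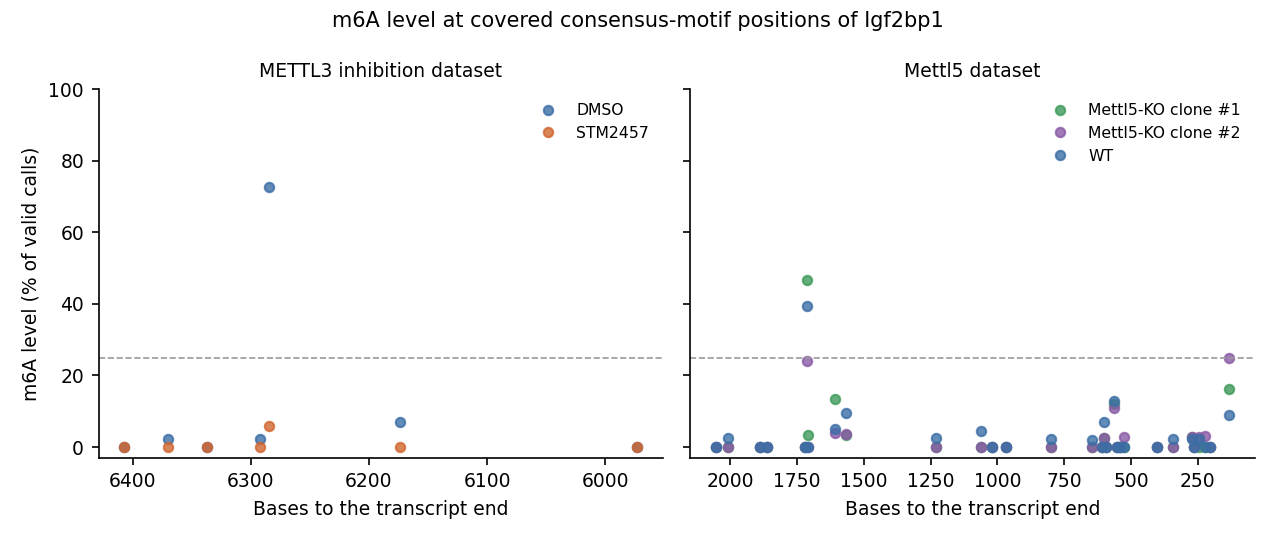
m6A level (percent of valid calls) at every covered consensus position of Igf2bp1 against the bases to the transcript end, in DMSO and STM2457 (left) and in WT and both Mettl5-KO clones (right). The dashed line marks 25%. On the left 1 position, at 72.5% in DMSO, is above the line, and on the right the highest position is the one at 39.5% in WT.

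Coverage of the transcripts was compared after scaling to the valid calls on exons of each library. In bulk samples, fewer cells of a type and less RNA per cell cannot be told apart. The mean coverage of Ythdf1 was 45.2 ± 4.99 (SD over 723 positions) calls in DMSO and 48.6 ± 7.04 in STM2457, or 646 and 920 when scaled to 1000000000 valid calls on exons. The log2 ratio of scaled coverage was 0.51 (1.42-fold), against a median of 0.11 over 2517 genes, and 82% of genes had a lower ratio. Igf2bp1 had a log2 ratio of 0.12, close to the median. At a change of at least 1.5-fold, 0 of these 2 genes were past the threshold, while 13.5% of all genes were higher and 5.13% lower. Since every position had at least 25 calls in both libraries, a 1.5-fold decrease could not have been seen at the coverage of these genes in DMSO. With no replicate library, no test was made.

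Along Ythdf1, the scaled coverage of STM2457 was above that of DMSO in both exons, with log2 ratios of 0.44 in exon 4 and 0.59 (1.5-fold) in exon 5. The difference was largest in the last 500 bases, where the mean coverage was 48.7 calls in DMSO and 58.7 in STM2457 (log2 ratio 0.67, against 0.12 over 1694 genes). Between 1500 and 2000 bases from the end it was 0.43, against 0.06. The last exon taken alone, and the highest coverage on the gene in place of its sum (log2 ratio 0.77), put Ythdf1 past the 1.5-fold threshold.

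**Figure D4:**
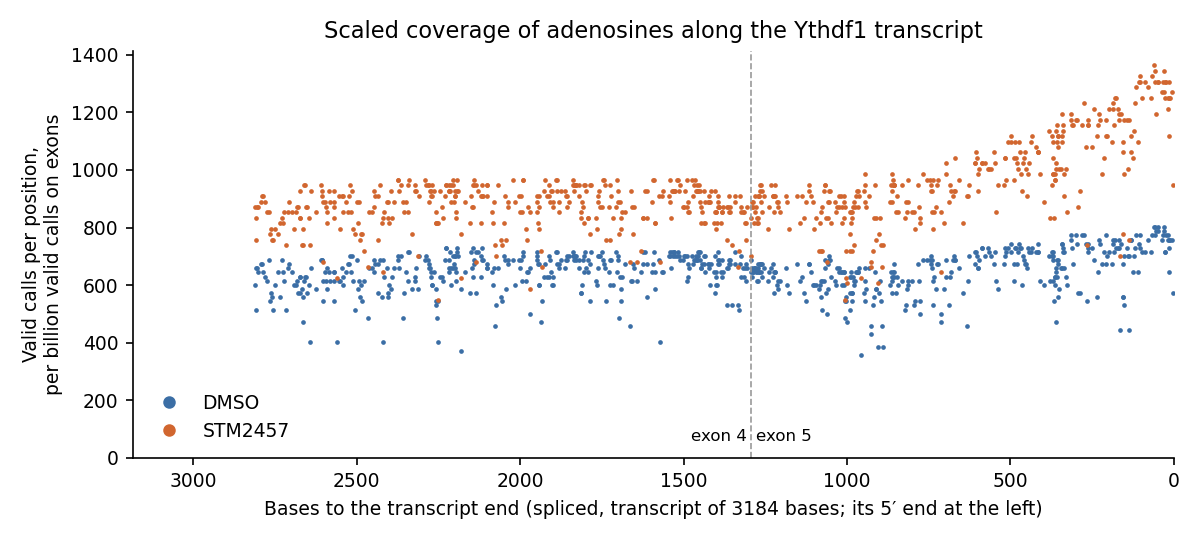
Valid calls per adenosine position of Ythdf1, scaled to 1000000000 valid calls on exons of the library, against the bases to the transcript end, in DMSO (blue) and STM2457 (orange). Each point is 1 of 723 positions, and the dashed line is the junction of exons 4 and 5. The STM2457 points lie above the DMSO points in both exons and rise toward the transcript end.

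In the Mettl5 dataset, Igf2bp1 had a mean coverage of 41.2 ± 4.09 calls in WT, 33.1 ± 4.74 in clone #1 and 31.1 ± 4.57 in clone #2 (SD over 313 positions). After scaling, the log2 ratio to WT was -0.07 in clone #1 and -0.30 in clone #2, against medians of 0.07 and 0.10 over 966 genes. It was not past 1.5-fold in either clone, while 4.87% of all genes were higher and 3.31% lower in both. Only positions with at least 25 calls in every library were held, and 37 of the 313 were at exactly 25 in clone #2. From a WT mean of 41.2 calls, a 1.5-fold decrease in both clones could therefore not have been seen.

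The covered stretches of Ythdf1, and that of Igf2bp1 in the METTL3 inhibition dataset, ended upstream at an exon junction, and over all genes upstream exons were covered less often over long introns than over short ones. Exon pairs were taken where the downstream exon had a median coverage of at least 150 in DMSO and the upstream exon was longer than 60 bases. The upstream exon had no position for 1.38% of 217 pairs joined over an intron of up to 100 bases, for 49.7% of 155 pairs over 400 to 800 bases and for 100% of 38 pairs over more than 3000 bases. In WT, these shares were 4.84% of 62, 38.1% of 42 and 100% of 4, without a rise at every step: 4.08% of 49 pairs over 100 to 200 bases, and 66.7% of 21 over 800 to 1500 and 64.3% of 14 over 1500 to 3000 bases. The intron between exons 4 and 5 of Ythdf1 has 5018 bases, and both exons were covered at a similar mean of 44.8 and 45.5 calls in DMSO, while exons 1 to 3 had no position. The last intron of Igf2bp1 has 2584 bases. Among the genes with no position, Wtap, Ythdf2 and Ythdf3 have last exons of 2790, 2036 and 3083 bases and last introns of 5347, 17184 and 8530 bases. Alkbh5 has a last exon of 4275 bases and a last intron of 368 bases, and Mettl3 a last exon of 253 bases. Whether reads were aligned across introns is not given in the sources used here. A gene without a position is therefore not shown to be unexpressed, and the coverage of Ythdf1 and Igf2bp1 stands for their covered exons only. What left these genes without a position was not tested.

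**Figure D5:**
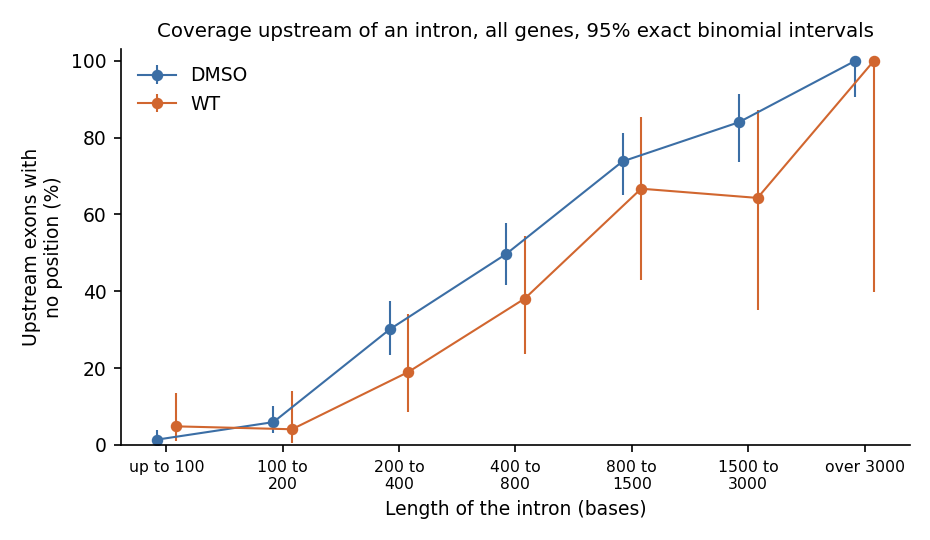
Share of upstream exons with no covered position (y axis, percent) by the length of the intron that separates them from a well covered downstream exon (x axis, bases), over all genes, in DMSO (blue) and WT (orange). Bars are 95% exact binomial intervals. The share is 1.38% in DMSO for introns of up to 100 bases and 100% for introns over 3000 bases.

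Of 27 further genes of the pathway, 8 were covered in the METTL3 inhibition dataset, and 5 of these had 15 m6A sites. Of these sites, 8 were called lower, against 91.5% over all genes, 0 were called higher and 7 were not called, 5 of them in Mat2a. Both sites of Mettl16, another m6A methyltransferase, were lower, with means of 67.3% in DMSO and 7.41% in STM2457. Of 3 sites each in Elavl1, an RNA-binding protein that has been linked to m6A, and in the demethylase Fto, 2 were lower, with means of 45.5% and 7.61% in Elavl1 and of 33.7% and 9.28% in Fto. Both sites of Mat2b, a regulatory subunit of the enzyme that makes the methyl donor, were lower, with means of 42.2% and 9.06%. In Mat2a, the catalytic subunit, 0 of 5 sites were called lower, with means of 78.3% ± 8.51 in DMSO and 73% ± 12.5 in STM2457 (SD over sites). Hnrnpa2b1, Hnrnpc and Prrc2a were covered without a site.

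In the Mettl5 dataset, 5 of the 27 genes were covered with 13 sites, of which 0 were called in both clones, against 0.265% lower and 0% higher over all genes. The 5 sites of Mat2a had means of 78.4% in WT, 63.6% in clone #1 and 64.7% in clone #2, and the 7 sites of Elavl1 had means of 35%, 29.9% and 30.3%. The writers and regulators Mettl14, Virma, Rbm15, Rbm15b and Cbll1 had no position in either dataset, as was the case for Mettl3, Wtap and Zc3h13.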

How the data were processed

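Direct RNA sequencing libraries of mESCs were analysed from the modification calls per position. The authors separated the multiplexed reads with WarpDemuX, used dorado for basecalling, modification calling and alignment (mm10), and tabulated positions with modkit. The deposited counts are valid, m6A, unmodified, other-modification and failed calls per position and strand. The deposited percent, of m6A among valid calls, was not read and levels were computed from the counts. Failed calls, 8.31% to 9.15%, are outside the valid calls. Sequencing proceeds from the poly(A) tail.

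Positions were joined to GENCODE M21 exons on the call strand (bedtools 2.31.1), and bases came from its transcripts. Levels were compared by a two-sided Fisher's exact test in scipy 1.17.1 (Python 3.11.15, pandas 2.3.3), and p-values were adjusted by Benjamini-Hochberg across the sites of all genes in a dataset. Intervals cover counting error only, and those of pooled levels treat calls on 1 read as independent. The tests were run on simulated counts drawn independently, which hold neither shared reads nor variation between libraries. Coverage was scaled to the valid calls on exons, for genes with at least 20 positions. Sites named were, per gene, the 3 highest in DMSO, those not called lower and those with the extreme relative decreases, and others were named by motif after their values were seen. The genes and lists were chosen with earlier results of these data known. The pathway list holds 27 genes under 28 symbols, since Hrsp12 is an older name of Rida.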

Additional observations from a re-analysis of the deposited data

How the results depend on the processing

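The number of Ythdf1 and Igf2bp1 sites lower in STM2457 was 15 of 17, against 91.5% of all sites. It was 2 of 3 with at least 50 valid calls (94.7% of all sites), 9 of 11 with a level of 50% or more (97.7%), 17 of 38 with 10% or more (53.3%), 13 of 15 with DRACH motifs only (97.5%) and 14 of 16 with failed calls in the denominator (96.4%). It was 14 or 15 of 17 with the DMSO level alone, RefSeq-linked exons, m6A and unmodified calls only, an adjusted p below 0.01, a relative decrease of at least 50%, and, chosen after seeing the data, at least 25 valid calls. The pooled levels of 64.1% and 23.4% moved with the set of sites, to 78% and 46.7% with at least 50 calls, to 37.2% and 14.8% with a level of 10% or more, and to 78.8% and 32.7% with 50% or more, and with DRACH motifs only DMSO was at 68.5%. Over consensus positions, 18.6% and 6.64% became 30.6% and 16.1% with at least 50 calls and 59.6% and 32% with only the GGAC motifs that end in T, A or C. In each case the set of positions changed and DMSO was above STM2457. The highest coverage on the gene, and, chosen after seeing the data, the last exon alone, put 1 gene (Ythdf1) past 1.5-fold in place of 0. With failed calls in the denominator, or m6A and unmodified calls only, 0 single sites with a value changed sign or call, but with failed calls 180910905 was no longer a site. With a relative decrease of at least 50% required, 180910937 (just under it) was not counted. In the Mettl5 dataset the counts of 0 stayed 0 under every alternative run, leaving out either clone included (0 to 0). With at least 50 calls no Igf2bp1 site was left. These counts rest on 1 gene and, at the main settings, on 1 site. A decrease could hardly have been called at this depth, so the unchanged counts say little. No paired analysis was possible because no condition shares 2 replicate numbers with another. Coverage of 25 to 72 calls per position on these genes limits the precision of each level.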

Other observations

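The letters after the motif were compared at GGACA sites after the levels were seen, with no test. Of 931 GGACA sites with a full surrounding sequence, 9 sites in 8 genes were at 80% or more in STM2457, among them the Ythdf1 sites 180911008 and 180911531. At all 9, the motif was followed by CT or TT, as at 190 (20.4%) of the 931 sites. Most sites with these letters were low in STM2457: their median was 74.8% in DMSO and 16.7% in STM2457, and that of the other 741 sites was 51.9% and 9.38%. Among sites at 90% or more in DMSO, the median in STM2457 was 51.9% at 52 sites with these letters and 38.6% at 62 without.

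Calls of a modification other than m6A were rare on both genes. On Ythdf1 they made up 0.429% of valid calls in DMSO and 0.384% in STM2457, and the highest share was at 180904513, with 10 of 31 calls in DMSO and 8 of 40 in STM2457. On Igf2bp1 in the Mettl5 dataset the highest share was at 95957419, with 7 of 35 calls in WT, 6 of 25 in clone #1 and 4 of 34 in clone #2.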
